A study of Sus scrofa with 15 samples.

Results

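Receptor genes of NK cells were followed here in the pig: CD96, TIGIT, CD226 and CRTAM, which bind nectins or nectin-like proteins, and the checkpoint genes LAG3, HAVCR2, PDCD1 and CTLA4. They were chosen by name, by a rule that uses no measured value but with earlier results of these data known, and make up 8 of the 29886 genes of the count table. Of the 8, 5 had enough counts to be tested for a difference between populations (CD96, TIGIT, CD226, CRTAM and HAVCR2), among 10939 genes that passed the same filter on low counts, and the other 3 are given by their counts. RNA came from 3 populations of CD3- CD172a- NK cells sorted from each of 5 pigs, 6 months of age. These were CD8α-high NK cells of blood, CD8α-high NK cells of the liver and CD8α-dim liver-resident NK (lrNK) cells. Livers were first flushed through the portal vein, and the liver cells were then isolated from the collected fluid of a final flush. With 5 pigs per population, the 15 libraries are separate animals within a population, and the same animals across populations.

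CD226, TIGIT and CD96 are a receptor group of NK and T cells that shares ligands of the nectin family, above all PVR (CD155). CD226 is the activating member and TIGIT the inhibitory one, and CD96 binds PVR as well, with inhibitory effects described in mouse NK cells, while CRTAM is an activation-induced receptor of CADM1. LAG3, HAVCR2 (which encodes TIM-3), PDCD1 (PD-1) and CTLA4 are receptors that restrain lymphocytes after activation.

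Reads were taken from the 3′ end of each transcript, so that a count does not grow with transcript length. Libraries held 2874092 to 3823973 counts in blood, 2886686 to 5680221 in liver CD8α-high cells and 2003499 to 3776823 in lrNK cells. Levels are given as CPM (counts scaled by the library total, after TMM adjustment), and mean ± SD is over 5 pigs. NK cell markers summed to 2120 to 3399 CPM in blood, 2757 to 3248 in liver CD8α-high and 2531 to 4984 in lrNK libraries. The sum hides opposite changes in lrNK against blood, by log2 fold change. Of the 8 markers, 4 were called higher (NCR1 2.47, KLRB1 2.34, KLRD1 1.76 and NKG7 0.53) and 2 lower (NCR3 -2.91 and CD8A -3.43). Of all tested genes, 8.62% were called higher and 9.6% lower. CD8A, which the sort used, had a mean of 466 CPM in blood libraries, against 43.4 CPM in the CD8α-dim cells. On the first 2 principal components of the 500 most variable genes, the lrNK library of pig 3 stood apart on the second (35.2, against -16.0 to 9.64 in the other libraries), and the liver CD8α-high library of pig 1 lay at -8.51 on the first, against -37.2 to -24.9 in the other liver CD8α-high libraries. Without pig 3 the log2 fold changes of lrNK against blood were 2.22 for CD96, -2.90 for CD226 and 1.06 for CRTAM, and all 3 remained called.

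CD96, CD226 and CRTAM were called between lrNK and blood NK cells: CD96 and CRTAM rose and CD226 fell. TIGIT and HAVCR2 were tested and not called, and LAG3, PDCD1 and CTLA4 were at or near 0 counts. Of the 5 tested genes, 3 (60%) passed an adjusted p of 0.05 in this comparison (2 higher and 1 lower), where 18.2% of all tested genes passed (8.62% higher and 9.6% lower). In lrNK against liver CD8α-high cells 2 of 5 passed (1 higher, 1 lower), beside 14.6% of all tested genes (6.96% higher and 7.68% lower). None of the 5 passed between liver CD8α-high and blood cells, where 7 genes in all passed (0.064%), and 1 of the 5 had an unadjusted p under 0.05 by edgeR against 549 of all genes, and DESeq2 called 1 of the 5. The median log2 fold change of the 5 was 1.09, 0.22 and 0.42 in these 3 comparisons, and that of all tested genes lay between -0.024 and 0.016.

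**Figure D1:**
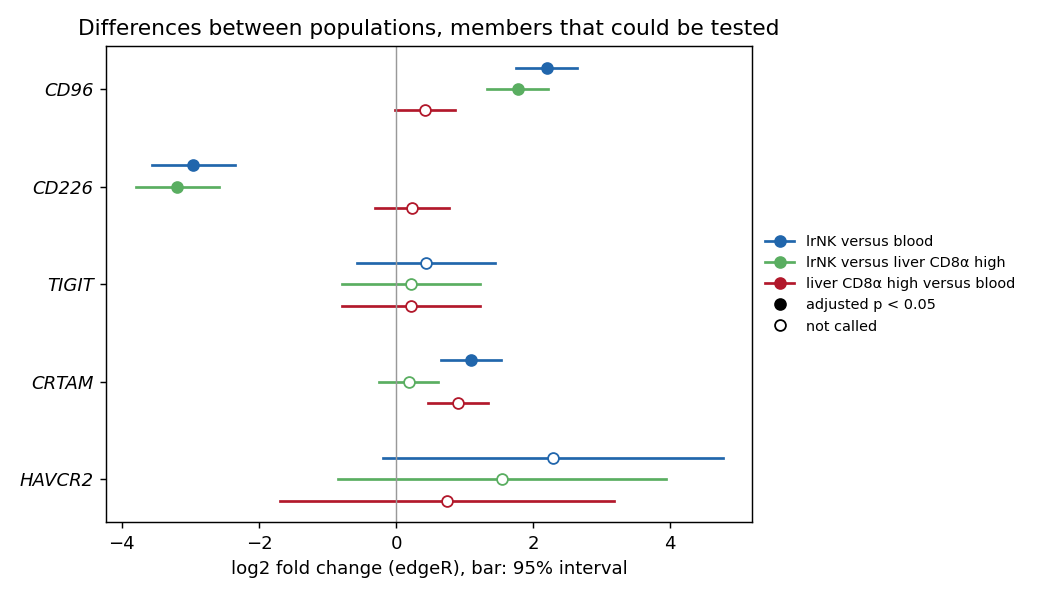
Log2 fold change (horizontal axis) of the 5 testable genes (rows) in the 3 comparisons, with the 95% interval as a bar; filled points passed an adjusted p of 0.05 and open points did not. CD96 lies at 2.20 and 1.77 in the lrNK comparisons and CD226 at -2.96 and -3.19, and their intervals do not reach 0.

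CD96 lies on chromosome 13 (Sscrofa11.1, 148103424 to 148192272). Its levels in blood were 82.4, 94.3, 110, 124 and 119 CPM in pigs 1 to 5 (106 ± 17.3). In liver CD8α-high cells they were 217, 91.8, 159, 105 and 139 CPM (142 ± 49.7), and in lrNK cells 581, 393, 472, 406 and 574 CPM (485 ± 89.6). Every lrNK library was above every library of the other 2 populations, and each pig had its highest level in lrNK cells. The difference was 4.58-fold against blood (log2 fold change 2.20, SE 0.21, edgeR quasi-likelihood test with Benjamini-Hochberg adjustment, adjusted p = 2.05e-07) and 3.42-fold against liver CD8α-high cells (1.77, SE 0.21, adjusted p = 3.83e-06). Liver CD8α-high and blood libraries overlapped, with CD96 higher in 3 of 5 pigs (0.42, 95% interval -0.01 to 0.86, edgeR adjusted p = 1.00). The highest of these levels was in the liver CD8α-high library of pig 1, and without pig 1 the difference was 0.16. The other genes within the span of CD96, LOC102158769 and ZBED2, had 6 and 1 counts in all 15 libraries together.

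CD226, on chromosome 1 (152872878 to 152977162), went the other way. Blood libraries of pigs 1 to 5 held 109, 139, 122, 119 and 117 CPM (121 ± 10.96), and liver CD8α-high libraries 105, 132, 124, 185 and 166 CPM (143 ± 32.6). lrNK libraries held 28.2, 13.0, 13.2, 5.62 and 18.5 CPM (15.7 ± 8.38), from counts between 20 and 71. The highest lrNK library was below the lowest of the other populations. CD226 was 7.76-fold lower than in blood (-2.96, SE 0.29, edgeR adjusted p = 2.14e-07) and 9.12-fold lower than in liver CD8α-high cells (-3.19, SE 0.29, adjusted p = 9.98e-08). Between liver CD8α-high and blood cells the log2 fold change was 0.23 (95% interval -0.31 to 0.77, adjusted p = 1.00), so the libraries do not resolve a change within that interval.

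TIGIT, on chromosome 13 (145673646 to 145799024), was at low levels in all populations. Its levels were 10.03, 12.9, 17.4, 2.89 and 13.0 CPM in blood (11.2 ± 5.35), 13.5, 15.6, 20.1, 3.62 and 13.4 CPM in liver CD8α-high cells (13.2 ± 6.01) and 17.4, 21.1, 6.82, 8.99 and 21.9 CPM in lrNK cells (15.3 ± 6.97). The 3 ranges overlapped, and pig 4 had the lowest TIGIT in both CD8α-high populations. The order of the means (blood, liver CD8α-high, lrNK) was not called in any step, with or without the pig as a block: log2 fold changes were 0.44 (95% interval -0.57 to 1.45, edgeR adjusted p = 0.609) for lrNK against blood, 0.22 (-0.79 to 1.22, adjusted p = 0.848) for lrNK against liver CD8α-high and 0.22 (-0.78 to 1.23, adjusted p = 1.00) for liver CD8α-high against blood. The liver CD8α-high level was above the blood level in 5 of 5 pigs (adjusted p = 0.993 with the block, edgeR) and the lrNK level in 4 of 5, the exception being pig 3. The first of these intervals includes a log2 fold change of 1.09, the value of CRTAM in that comparison. TIGIT shares 29731 bases with DRD3, which had 0 counts in all libraries, and whether reads on the shared bases were counted for TIGIT is not known.

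CRTAM, on chromosome 9 (49782166 to 49811314), had liver CD8α-high libraries that did not overlap those of blood, though edgeR did not call this difference. How many of all tested genes had libraries separated in this way was not counted. Blood libraries held 102, 109, 122, 54.2 and 114 CPM (100.3 ± 26.8), and pig 4 was the lowest there. Liver CD8α-high libraries held 228, 180, 191, 156 and 184 CPM (188 ± 25.9), and lrNK libraries 140, 197, 280, 215 and 239 CPM (214 ± 51.9). Both liver populations were above all blood libraries, and they overlapped each other. The rise in lrNK cells over blood was 2.13-fold (1.09, SE 0.21, 95% interval 0.65 to 1.53, edgeR adjusted p = 7.19e-04, higher in 5 of 5 pigs). Liver CD8α-high cells differed from blood by 0.90 (SE 0.21, 95% interval 0.47 to 1.34), higher in 5 of 5 pigs, which did not pass with edgeR (adjusted p = 0.222) and did with DESeq2 (adjusted p = 0.0223, where 0.229% of genes passed) and with edgeR and no filter on low counts (adjusted p = 0.0469, where 0.0991% passed). The adjusted p of this difference ran from 0.0223 to 0.983 over the alternatives tried. Between lrNK and liver CD8α-high cells the difference was 0.19 (95% interval -0.24 to 0.62, edgeR adjusted p = 0.652, higher in 4 of 5 pigs).

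**Figure D2:**
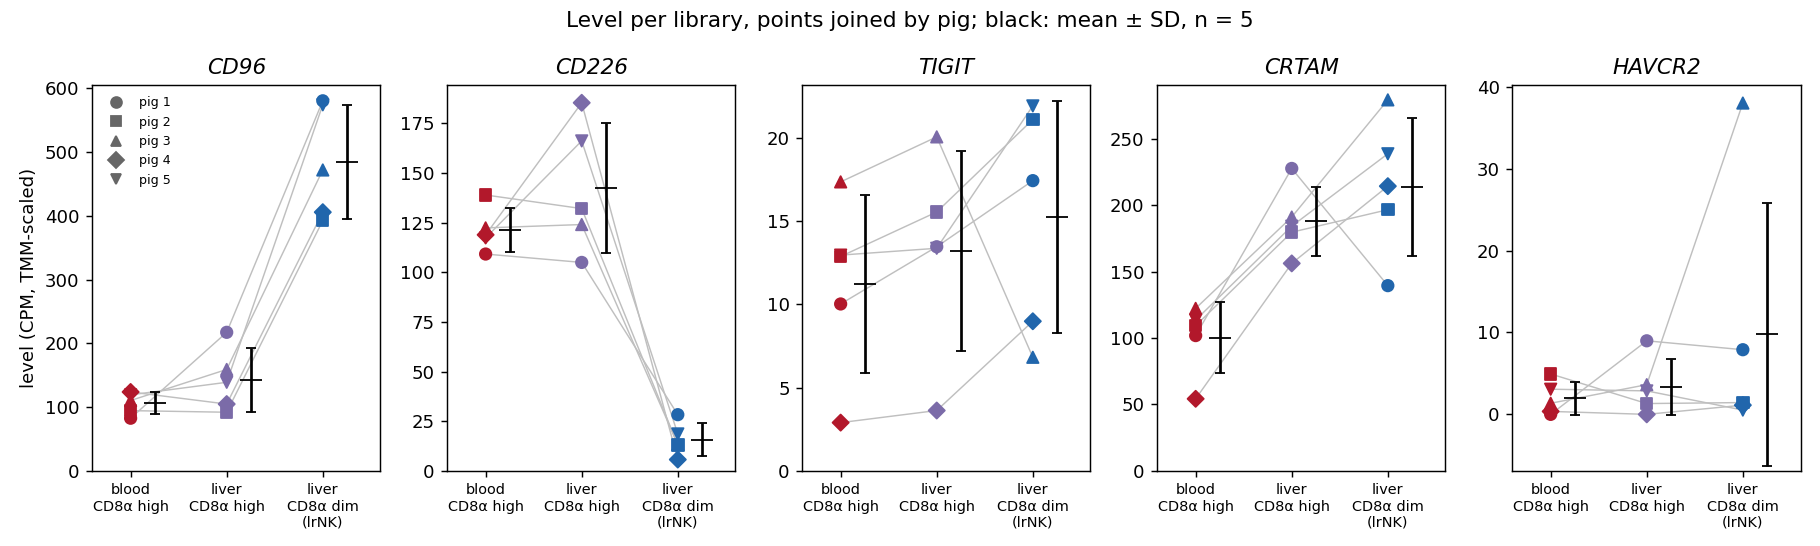
Level of the 5 testable genes in CPM (vertical axis, one panel per gene, each with its own scale) in blood CD8α-high, liver CD8α-high and lrNK libraries; symbols mark pigs, grey lines join libraries of a pig, and black bars are mean ± SD (n = 5). CD96 rises in lrNK libraries to 393 to 581 CPM while CD226 drops to 5.62 to 28.2 CPM, TIGIT overlaps throughout, and a single lrNK library of HAVCR2, pig 3, is at 38.0 CPM.

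HAVCR2, on chromosome 16 (66138157 to 66160568), was sparse. Counts in pigs 1 to 5 were 0, 18, 5, 1 and 9 in blood, 26, 5, 13, 0 and 12 in liver CD8α-high cells and 19, 3, 78, 4 and 2 in lrNK cells, and pig 3 alone held the 78. As levels, these were 1.94 ± 2.05, 3.36 ± 3.44 and 9.79 ± 16.0 CPM, with 38.0 CPM in lrNK cells of pig 3 and 7.89 CPM at most in the other lrNK libraries. No comparison passed (log2 fold change 2.29, edgeR adjusted p = 0.211 for lrNK against blood; 1.54, adjusted p = 0.455 against liver CD8α-high; 0.74, adjusted p = 1.00 between the CD8α-high populations). The first became 0.35 without pig 3, 3.27 without pig 2 and 1.31 with the pig as a block, none of them called. The second turned to -0.26 without pig 3, and without pig 1 the third turned to -0.34. In the lrNK library with the 78 counts, a list of 6 myeloid markers (CD14, CSF1R, CD163, SIRPA, LYZ and CD68) summed to 0 CPM. Hepatocyte markers summed to 9.74 CPM there, the highest of the 15 libraries, all of it from TF (20 counts), with ALB at 0. The part of RNA from such cells in the HAVCR2 count was not tested.

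LAG3 on chromosome 5 (63929669 to 63935054) had 1 count, in the blood library of pig 2, and 0 in the other 14. PDCD1 and CTLA4, both on chromosome 15 (140337353 to 140347493 and 107283081 to 107288041), had 0 counts in all 15 libraries. A count of 0 in a library allows up to 3 counts, which is 0.813 to 1.08 CPM in blood, 0.517 to 1.04 CPM in liver CD8α-high and 0.784 to 1.46 CPM in lrNK libraries. Transcripts of PDCD1 and CTLA4 were thus not detected, and a level below those limits cannot be told from 0. Of all 29886 genes, 11717 had 0 counts in all 15 libraries. Whether a row at 0 reflects the level of the transcript or the way reads were counted was not tested. For LAG3 the limit is less certain, since LOC110260752, which shares 2622 bases with it, had 30 counts over all libraries, and how reads on shared bases were assigned is not known. CD226, CRTAM, HAVCR2, PDCD1 and CTLA4 overlap no other gene in the annotation. All limits and intervals cover counting error or the spread between pigs and not the efficiency with which a transcript's 3′ end is captured.

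The make-up of the nectin receptor reads differed between populations. Of the reads of CD96, TIGIT, CD226 and CRTAM in a library, CD96 took 31.5% ± 6.005 in blood, 28.7% ± 6.82 in liver CD8α-high and 66.2% ± 5.80 in lrNK cells, where it ranged from 61.2% to 75.8%. CD226 took 36.0% ± 3.41, 29.9% ± 8.52 and 2.11% ± 1.02. In lrNK cells the CD226 share was thus about as small as that of TIGIT (2.11% ± 0.98), which had been 3.23% ± 1.37 in blood and 2.73% ± 1.28 in liver CD8α-high cells. CRTAM took 29.3% ± 6.38, 38.7% ± 3.18 and 29.6% ± 7.03. The 4 genes summed to 339 ± 34.5 CPM in blood, 486 ± 55.0 CPM in liver CD8α-high and 729.9 ± 98.4 CPM in lrNK cells.

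**Figure D3:**
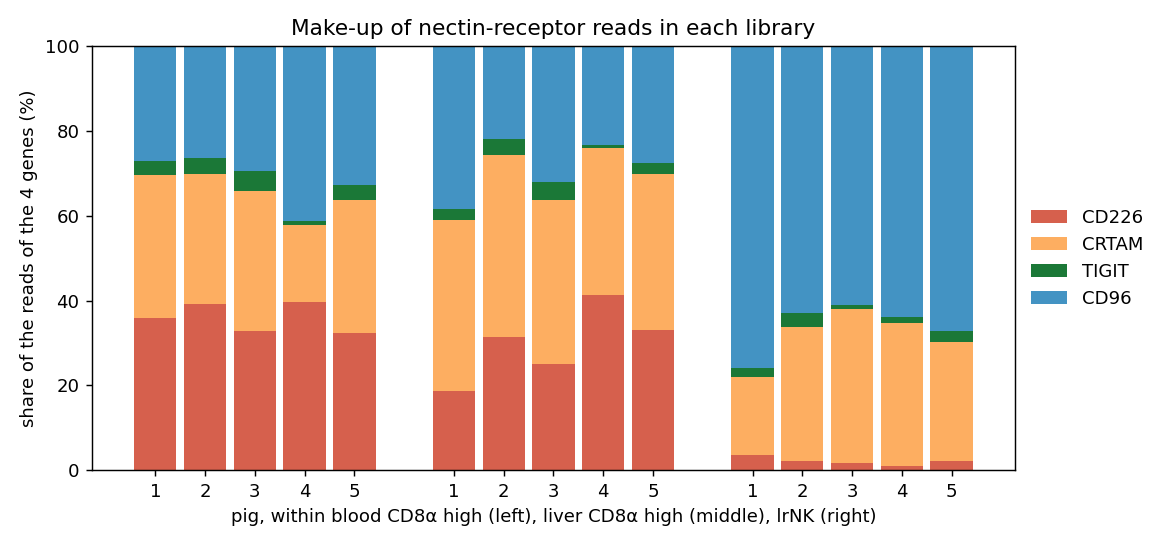
Share (vertical axis, %) of CD226, CRTAM, TIGIT and CD96 in the reads of these 4 genes, one stacked bar per library, grouped by population and numbered by pig. CD96 takes 61.2% to 75.8% in the lrNK bars, and CD226, at 2.11% on average there, is a thin band.

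Because a ratio of reads within a library does not depend on its depth, CD96 and TIGIT were also set against CD226. CD96 reads per CD226 read were 0.679 to 1.04 in blood, 0.564 to 2.07 in liver CD8α-high and 20.4 to 70.5 in lrNK libraries. The mean log2 ratio was -0.21 ± 0.27, -0.04 ± 0.75 and 5.09 ± 0.65, so that lrNK cells differed by 5.30 from blood and by 5.14 from liver CD8α-high cells (exact permutation test, two-sided, p = 0.00794 each, the smallest that 5 against 5 libraries allow, and 0.0119 after Benjamini-Hochberg adjustment over 6 ratio tests). These libraries were paired by pig, and a sign-flip test over 5 pairs gave 0.0625, the smallest p it can give. TIGIT reads per CD226 read rose from a mean log2 ratio of -3.62 ± 0.96 in blood and -3.58 ± 1.21 in liver CD8α-high to -0.00236 ± 0.76 in lrNK cells, which is 0.527 to 1.62 TIGIT reads for each CD226 read, with differences of 3.62 and 3.58 (exact permutation p = 0.00794, adjusted 0.0119, and again 0.0625 by pairs). Both ratios were higher in lrNK cells in 5 of 5 pigs, without overlap. TIGIT by itself was not called in these comparisons, while CD226 was. Liver CD8α-high and blood cells did not differ in either ratio beyond the spread (0.17, exact permutation p = 0.675, adjusted 0.810, and 0.04, p = 0.944, adjusted 0.944).

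**Figure D4:**
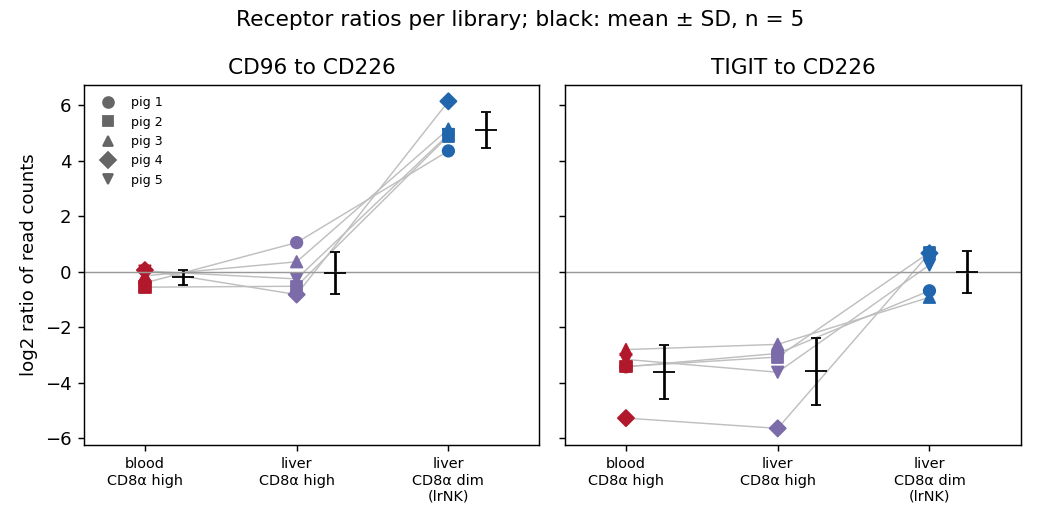
Log2 ratio of read counts (vertical axis) of CD96 to CD226 and of TIGIT to CD226 in each library; symbols mark pigs, grey lines join libraries of a pig, and black bars are mean ± SD (n = 5). All lrNK libraries lie above those of the other populations, with means of 5.09 and -0.00236.

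Across the 15 libraries the log2 CPM of CD96 and CD226 had a Pearson r of -0.87, CD96 and CRTAM 0.58, CD226 and CRTAM -0.50 and CD96 and TIGIT 0.27. These values are descriptions, since the libraries share populations and pigs. Among 5920 genes with a symbol and a mean of at least 20 CPM, the 3 whose pattern over the libraries was most like that of CD96 were DUSP5 (r = 0.975), GPR161 (0.953) and F2R (0.951). For CD226 they were HACD4 (0.980), PTGER4 (0.979) and PWWP2A (0.979), for CRTAM RAB29 (0.939), P2RY10 (0.909) and MSL2 (0.897), for TIGIT KMT2A (0.830), RNF145 (0.815) and GMPR2 (0.803), and for HAVCR2 USP28 (0.800), SDAD1 (0.788) and KHNYN (0.780). The r values for TIGIT and HAVCR2 were below those for CD96 and CD226. Within the 5 libraries of a single population, too few for a firm value, the sign could differ: r was -0.57 for DUSP5 with CD96 in lrNK cells, and -0.82, -0.28 and -0.45 for HACD4, PTGER4 and PWWP2A with CD226 in blood.

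Transcripts of most nectin ligands were scarce in the NK cells themselves. NECTIN1, NECTIN2 and NECTIN4 had 0 counts in all libraries, and NECTIN3 had counts in 6 libraries, at most 15. CADM1, the ligand of CRTAM, averaged 15.1 ± 14.1 CPM in blood, 11.99 ± 10.5 in liver CD8α-high and 2.78 ± 5.27 in lrNK cells. The lrNK against blood difference was -2.52 (edgeR adjusted p = 0.112), and it ran from -5.17 without pig 3 (adjusted p = 0.00450) to -1.41 without pig 4 (adjusted p = 0.491). It was also called with no filter on low counts (-2.54, adjusted p = 0.0363). PVR, the ligand shared by CD226, TIGIT and CD96, had no row of that symbol in the table and was not analysed here. CD80, a ligand of CTLA4, fell in lrNK cells from 58.3 ± 11.5 CPM in blood to 17.9 ± 10.4 (-1.70, SE 0.35, edgeR adjusted p = 0.00153), and CD86, the other CTLA4 ligand, rose from 81.3 ± 29.7 to 156 ± 52.3 (0.95, SE 0.26, adjusted p = 0.0125, higher in 4 of 5 pigs). The CD86 call was lost without pig 1, 4 or 5 (adjusted p = 0.0514, 0.0963 and 0.0643), and CD86 moved with the B cell markers given below, whose part in it was not tested. CD274, which encodes PD-L1, the ligand of PD-1, had 0 counts in every blood library and up to 30 in lrNK libraries, and LGALS9, a ligand of TIM-3, had 0 to 5 counts in blood and 5 to 42 in lrNK libraries, and neither passed the filter. PDCD1LG2 had 8 counts in 1 blood library, CEACAM1 (1.05, adjusted p = 0.437, and 0.37 without pig 3) and HMGB1 (0.07, adjusted p = 0.849, with means of 2005 CPM in blood and 2103 CPM in lrNK libraries) were not called, CD276 and VTCN1 had at most 13 and 5 counts, and LGALS3, FGL1 and IGSF11 had none. In all, 2 of 4 tested checkpoint ligands were called, 1 in each direction, beside 18.2% of all genes.

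Of 7 tested receptors related to the 8 (4 called in lrNK against blood, 2 each way, beside 18.2% of all genes), PVRIG, an inhibitory receptor that binds nectin-2, rose from 68.9 ± 15.8 CPM in blood to 144 ± 24.6 in lrNK cells, without overlap (1.06, SE 0.23, edgeR adjusted p = 0.00231). CD200R1, an inhibitory receptor for CD200, rose by 4.43 (SE 0.85, adjusted p = 7.18e-04, 1.33 ± 2.32 to 28.0 ± 21.5 CPM). It was 3.67 without pig 4 and 6.47 without pig 5, and remained called. VSIR, which encodes the checkpoint VISTA, fell from 70.8 ± 4.82 to 20.1 ± 3.41 CPM (-1.82, SE 0.19, adjusted p = 4.71e-07), and CD300A, an inhibitory receptor for phospholipids, from 55.0 ± 15.3 to 5.11 ± 6.84 CPM (-3.35, SE 0.67, adjusted p = 0.00109, and -4.09 without pig 5). These 4 were also called against liver CD8α-high cells, in the same directions, where 14.6% of all genes passed. CD28 had 0 counts throughout and BTLA 1.

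Of 15 genes for signalling below such receptors, 4 rose and 1 fell in lrNK against blood, beside 8.62% and 9.6% of all genes. CBLB, a ubiquitin ligase that restrains lymphocyte activation, rose from 210 ± 29.8 to 666 ± 172 CPM (1.66, SE 0.18, edgeR adjusted p = 9.94e-07), FYN, a Src family kinase, by 0.94 (adjusted p = 3.70e-04) and PTPN6, the phosphatase SHP-1, by 0.91 (adjusted p = 0.00278). ARRB2, which encodes an adaptor in receptor signalling, fell from 121 ± 22.6 to 21.4 ± 7.44 CPM (-2.47, SE 0.22, adjusted p = 8.07e-08). None of 6 shedding and trafficking genes passed by edgeR or DESeq2 (2 had an unadjusted p under 0.05 by edgeR, and 1 was called without pig 3). Of 18 transcription factors, 10 passed, 6 higher and 4 lower, beside 18.2% of all genes, and 7 to 9 passed when a pig was left out. Those that changed most were TOX2 (5.33, SE 0.62, adjusted p = 1.96e-06, 3.86 ± 2.13 to 156 ± 81.5 CPM) and NR4A3 (-5.27, SE 0.51, adjusted p = 2.03e-07, 150 ± 64.0 to 4.14 ± 3.80 CPM), both associated with the state of activated and exhausted T cells, followed by the T-box factors of NK cell maturation, EOMES (4.09, SE 0.55, adjusted p = 1.27e-05) and TBX21 (-2.55, SE 0.22, adjusted p = 4.06e-08). TOX was lower in 5 of 5 pigs (-0.49) and was not called without the pig as a block (edgeR adjusted p = 0.108) but was called with it (adjusted p = 0.0444).

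**Figure D5:**
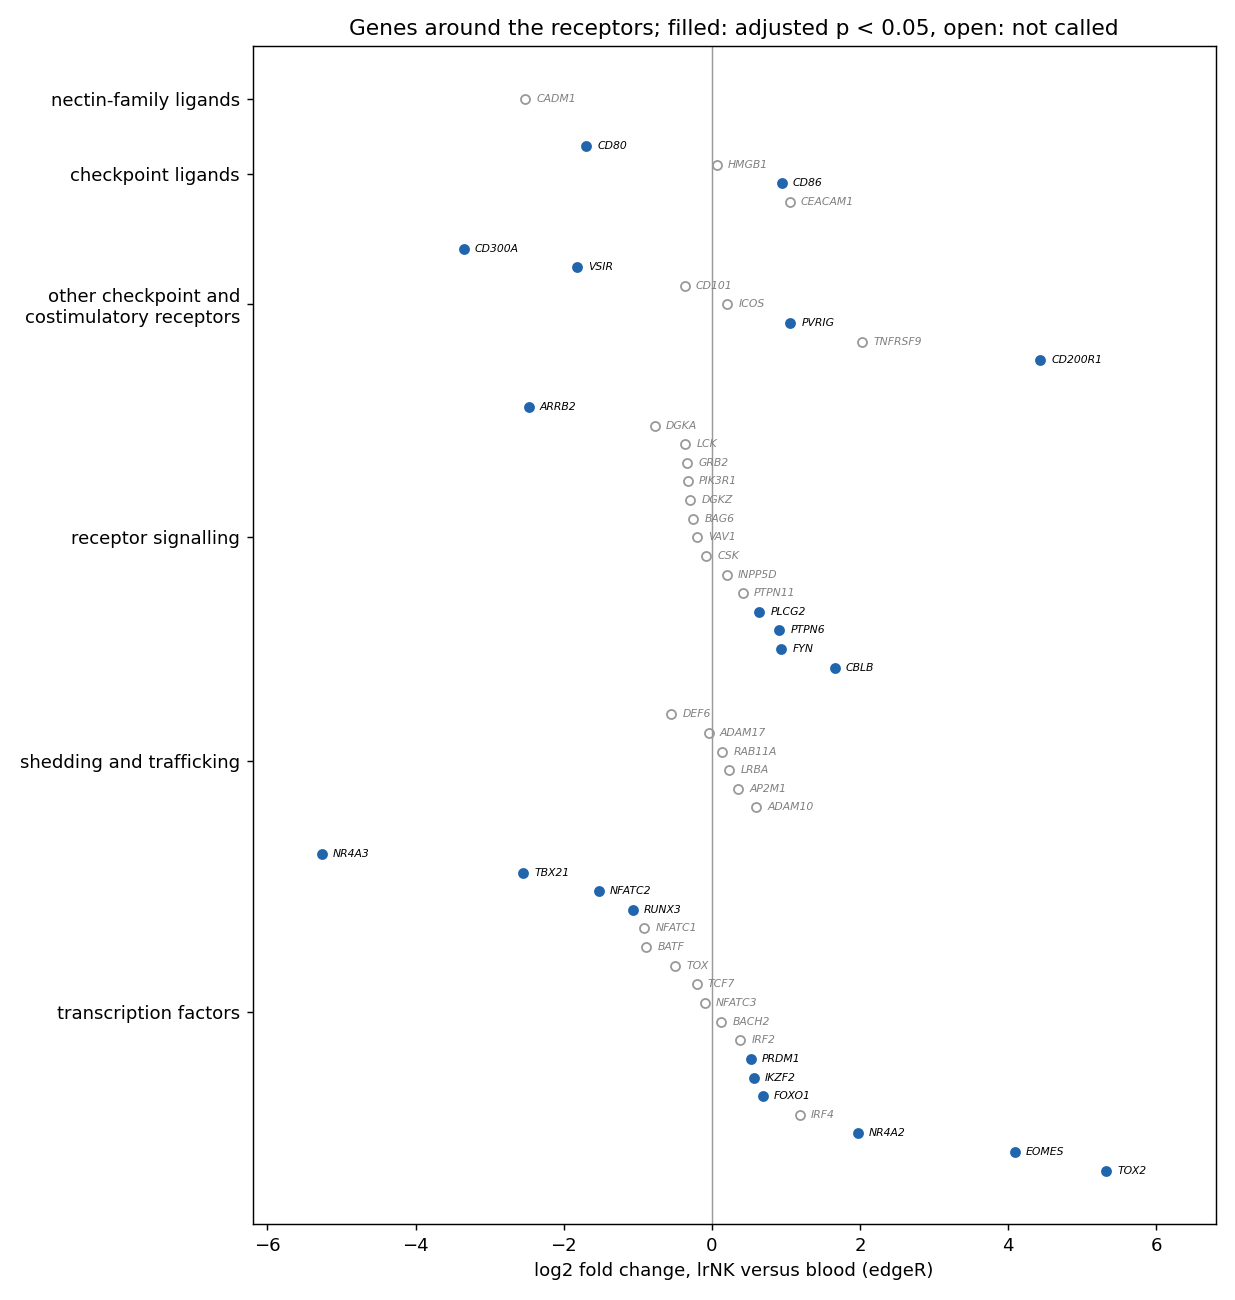
Log2 fold change of lrNK against blood (horizontal axis) for genes of 6 lists around the receptors (rows); filled points passed an adjusted p of 0.05 by edgeR and open points did not. TOX2 at 5.33 and NR4A3 at -5.27 are the outer points, and no gene of the shedding and trafficking list was called.

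Markers of other cells moved in part with these differences. B cell markers were higher in lrNK cells (MS4A1, CD79B and PAX5, 3 of 3 tested, beside 8.62% of all genes higher than in blood, summed 9.55 to 99.9 CPM in blood, 0 to 38.7 in liver CD8α-high and 188 to 648 in lrNK libraries), while CD79A was at 0. T cell markers summed to 637 to 1203 CPM in blood, 714 to 1079 in liver CD8α-high and 110 to 593 in lrNK libraries. Nearly all of this came from CD3G, which fell in lrNK cells against blood (-1.58, edgeR adjusted p = 0.00216). CD3D (1.15, edgeR adjusted p = 0.188) and CD3E (-2.21, adjusted p = 0.301) were not called in that comparison. CD4 and CD5 were at 0 in all libraries. Myeloid markers summed to 0 to 6.24, 0 to 2.93 and 0 to 25.6 CPM, with CSF1R and CD163 at 0. LYZ was called higher in lrNK than in liver CD8α-high cells (4.57, edgeR adjusted p = 0.0272), beside 6.96% of all genes. Innate lymphoid markers summed to 212 to 288, 164 to 277 and 185 to 348 CPM, and regulatory T cell markers to 3.02 to 15.7, 10.3 to 23.8 and 13.8 to 47.5 CPM. None of these was called in lrNK against blood, including KIT (1.79, edgeR adjusted p = 0.129) and IL2RA (1.36, adjusted p = 0.130). Hepatocyte markers summed to 0 CPM in blood, 0 to 2.15 in liver CD8α-high and 0 to 9.74 in lrNK libraries (APOA1, APOC3 and TTR at 0), and liver endothelial markers to 0 to 12.5, 0 to 4.46 and 2.44 to 18.5 CPM. The part of RNA from these cells in the levels of CD96, CD226 and CRTAM was not tested. In sorted bulk RNA, fewer cells carrying a receptor and less of its RNA in each cell cannot be told apart.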

How the data were processed

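The deposited table held whole-number read counts per gene and library, which the authors made from QuantSeq 3′ reads, trimmed and aligned with HISAT2 to Sscrofa11.1, without normalization. How reads were assigned to genes (tool, strandedness, multi-mapped reads) is not given in the sources used here. Each column name identified 1 library, with 0 unmatched.

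Tests used edgeR 4.0.16 under R 4.3.3 (TMM, the default filter by population, quasi-likelihood test, all 15 libraries in 1 fit, Benjamini-Hochberg adjustment over 10939 genes, threshold 0.05). The standard error is the log2 fold change divided by the square root of F. Ratios used a pseudocount of 0.5 counts and two-sided exact permutation tests. The code was tested on simulated data. Members and lists were chosen with earlier results of these data known. Of the marker lists, 1 gene is not reported here. Named genes were all members, the ligands, the 4 called genes of the largest change in each list, and the 3 most alike genes per member by r over log2 CPM (prior count 2). Libraries are paired by the pig in the labels (mean correlation of deviations 0.107 within pigs, -0.0265 between). Alternatives were DESeq2 1.42.0, DESeq2's size factors, other filters, robust dispersion, fitting just the pair of populations at hand, the pig as a block, an adjusted p of 0.01 and leaving out each pig. Positions come from a RefSeq table of the same assembly.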

Additional observations from a re-analysis of the deposited data

Results flagged for a closer look

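Of 21 groups of 5 libraries examined (levels of the testable receptors and the 2 ratios), 2 held a library far from the others, where chance alone flags about 1 in 20. HAVCR2 stood at 38.0 CPM in the lrNK library of pig 3, and the next highest lrNK library had 7.89 CPM, so that the gap took 0.803 of the whole range. The log2 ratio of TIGIT to CD226 was -5.28 in the blood library of pig 4, with the next at -3.43, a gap of 0.749 of the range. The liver CD8α-high library of pig 4 was also the lowest of its group (-5.65, with the next at -3.62) but was not flagged. Groups share pigs and are not independent.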

How the results depend on the processing

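CD96, CD226 and CRTAM kept their calls in lrNK against blood, and CD96 and CD226 against liver CD8α-high, under every alternative tried. With the pig as a block, 3, 2 and 0 of the receptors were called in the 3 comparisons (of 2120, 1716 and 8 genes called in all), so none of their calls changed, and of the listed partner genes the block changed only the call of TOX. Between liver CD8α-high and blood, 1 was called by DESeq2 and 1 with no filter on low counts (CRTAM each time) against 0. The paired sign-flip test left the ratio differences at 5.30, 5.14, 3.62 and 3.58 with an exact p of 0.0625, which 5 pairs cannot go below. Leaving out each pig in turn, CD96 ran from 2.06 to 2.32 and 1.69 to 1.90, CD226 from -3.29 to -2.73 and -3.59 to -2.85, CRTAM against blood from 0.93 to 1.22 (lrNK) and 0.81 to 0.98 (liver CD8α-high), and the ratios from 5.11 to 5.44, 4.68 to 5.59, 3.03 to 4.05 and 2.90 to 4.05. Between liver CD8α-high and blood they ran from -0.16 to 0.43 (CD96 to CD226) and -0.0753 to 0.160 (TIGIT to CD226) and so changed sign. HAVCR2 ran from -0.34 (without pig 1) to 1.65 in liver CD8α-high against blood and from -0.26 (without pig 3) to 2.36 in lrNK against liver CD8α-high, and HMGB1 from -0.22 (without pig 1) to 0.21. The cause was not tested. HAVCR2 and TIGIT had low counts and also varied between pigs, and which of these limited their tests was not examined. LAG3, PDCD1 and CTLA4 had too few counts to be tested.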
